A study of Homo sapiens with 30 samples.

Results

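The colony-stimulating factors CSF1, CSF2 and CSF3 were followed through 30 RNA sequencing libraries of hCMEC/D3 cells, an immortalised human brain microvascular endothelial line. They were taken by gene symbol, and each symbol matched 1 row, so the members are 3 of the 63138 genes in the table of counts. The libraries form 10 groups of 3. In 5 groups, called direct here, the cells spent 12 h in serum-free medium with no addition (Control group), with 25 ng/mL tumour necrosis factor (TNF group), with 10 ng/mL interleukin 1 beta (IL1b group), with 50 ng/mL of C5a, a fragment of complement (C5a group), or with 200 nM epinephrine (Epinephrine group). In the other 5, called vesicle groups, cells were given extracellular vesicles enriched from the supernatant of cells treated in one of these ways (named EV-Control, EV-Epinephrine, EV-C5a, EV-IL1b and EV-TNF after the donor cells), and the labels give 12 h for these as well. The labels do not give the dose of vesicles, so a difference in dose between vesicle groups cannot be told apart from the donor treatment. All groups are the same cell line, and the labels do not say whether the 3 libraries of a group came from separate cultures, so p-values measure only the spread between these libraries, which may be technical.

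CSF1, also called M-CSF, keeps monocytes, macrophages and microglia alive and acts through the receptor CSF1R. CSF2, or GM-CSF, drives granulocytes and macrophages through CSF2RA and the shared beta chain CSF2RB, and CSF3, or G-CSF, raises neutrophil production through CSF3R. Endothelial cells are a known source of the 3 factors during inflammation, and in the brain their vessels are where circulating myeloid cells meet the tissue. The mRNAs of CSF2 and CSF3 are textbook examples of short-lived transcripts with AU-rich elements in the 3′ untranslated region, and NF-kappaB and AP-1 are among the factors known to act at these genes.

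Library totals ran from 16643961 to 22112326 counts. Values are CPM, counts scaled to a common library size with trimmed mean of M-values factors. Adjusted p-values are Benjamini-Hochberg values over all genes, from the quasi-likelihood F test of edgeR, with a threshold of 0.05. Dividing by library totals alone moved the median log2 fold change of all genes in TNF against Control to -0.29, from -0.01, and the share of changed genes that were higher to 22.7%, from 52.1%. Of 10 endothelial marker genes, 9 reached 1 CPM in some group and their sum ran from 668 to 1132 CPM over the groups, while EMCN stayed below 1 CPM. Of 10 myeloid markers, 2 reached 1 CPM (PTPRC and CD14), the sum ran from 2.29 to 4.21 CPM, TYROBP was at 0 in all 30 libraries and LYZ in 29. Mural and fibroblast markers reached 1 CPM for 5 of 7 genes, with sums of 395.5 to 625 CPM, and 2 of 4 epithelial markers did so (KRT8 and KRT18), with sums of 167 to 354 CPM. The endothelial markers moved with most of the comparisons. Of the 9 tested among direct libraries, 6 were higher and 3 lower after TNF, and 7, 6 and 6 were lower and 0 higher after IL1b, C5a and epinephrine. The same tests called 52.7%, 46.6%, 22.6% and 25.2% of all genes in that order. Of the 10 tested in the other fits, 9 were lower in EV-Control than in Control (median log2 fold change -0.53), and against EV-Control 4 were higher in EV-TNF, 3 in EV-IL1b and 3 in EV-Epinephrine, with 0 lower. Of all genes 21.9% were called in EV-Control against Control, and 13.3%, 14.6% and 19.7% against EV-Control in that order. Of the 5 mural and fibroblast markers tested, 4 were lower after epinephrine. The part of these markers in the results was not tested.

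CSF1 (ENSG00000184371) lies on chromosome 1 from 109910242 to 109930992, CSF2 (ENSG00000164400) on chromosome 5 from 132073790 to 132076170 and CSF3 (ENSG00000108342) on chromosome 17 from 40015361 to 40017813, all on the plus strand (GENCODE 29, GRCh38). No annotated gene overlaps any of them on either strand, so no annotated antisense partner could add reads. Near CSF2 and CSF3 the closest genes did not share the members' pattern of levels: IL3, which lies 10585 bases from CSF2, had no count in any library, and MED24, 1283 bases from CSF3 on the other strand, stayed between 126 and 157 CPM as a group mean. Each of these mRNAs carries ATTTA, the pentamer of AU-rich elements, in its 3′ untranslated region. The 30 bases with the most such pentamers are shown because they set the 3 mRNAs apart from each other, in DNA letters, 5′ to 3′, with each ATTTA in capitals (neighbouring pentamers share a letter).
CSF2 (chr5:132076081-132076110): ATTTATTTATTTATTTATTTAagttcatat
CSF3 (chr17:40016983-40017012): ATTTAtctctATTTAatATTTAtgtctatt
CSF1 (chr1:109930924-109930953): ATTTAaatatctATTTAaaagataggaagc
The CSF2 stretch holds 5 overlapping pentamers, and its whole 3′ untranslated region of 318 bases holds 8. Of the 15456 genes with a region at least that long, 0.0259% have as many in their last 318 bases. CSF3 has 7 pentamers in 854 bases, as many as 2.25% of 10863 genes have in their last 854. CSF1 has 4 in 2154 bases, which 61.7% of 5357 genes match. In density of this element CSF2 and CSF3 thus stand far from most genes with a region at least as long, read over the same number of last bases. CSF1 does not. A match is a description of letters, and decay was not measured.

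CSF2 had the least counts at rest and, like CSF3, rose after TNF, IL1b and epinephrine. The 250 bases before its start are shown because the set of promoters used here held only CSF2 of the 3 members. They are chr5:132073539-132073788 on the plus strand, from RefSeq on GRCh38.p14. Capitals mark, in order, the core of the CK-1 element known from colony-stimulating factor promoters (GAGATTCC), a match on the minus strand to an NF-kappaB-type pattern (GGGAA, any 3 bases, then CC), and a RUNX-type TGTGGT.
CSF2 upstream: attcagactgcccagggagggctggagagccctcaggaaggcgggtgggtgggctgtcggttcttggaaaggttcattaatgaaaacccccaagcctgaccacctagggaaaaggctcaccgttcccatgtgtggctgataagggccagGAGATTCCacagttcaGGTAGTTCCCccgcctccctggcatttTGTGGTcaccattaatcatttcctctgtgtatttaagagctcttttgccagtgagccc
The CK-1 core lies 101 to 94 bases before the start and occurs on either strand in 0.735% of the 35116 windows of this length. The NF-kappaB-type match lies 85 to 76 bases before it and occurs in 6.02% of windows, and the RUNX-type match lies 58 to 53 bases before it (11% of windows). The NFAT core TTTCC matched 3 times, as it does at least once in 55.6% of windows. The letters of an AP-1 site (TGANTCA, in 6.57% of windows) and of a full cAMP response element (TGACGTCA, in 1.65%) are not in this window. No overlap was found among the 3 marked matches.

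At rest, in Control cells, CSF1 was the abundant member and CSF2 was close to the limit of counting. CSF1 stood at 123.5, 119.8 and 113.9 CPM in the 3 libraries. CSF3 stood at 3.60, 3.20 and 4.33 CPM, which rests on 60 to 77 counts a library. CSF2 stood at 0.634, 0.48 and 0.337 CPM, from 12, 9 and 6 counts. A count of 0 would allow up to 3 counts in a library, so CSF2 was above that limit in each Control library. Per kilobase of exon, the scale on which different genes can be compared, Control levels were 22.0 for CSF1, 1.67 for CSF3 and 0.615 for CSF2, and CSF1 made up 90.6% of the sum of the 3.

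**Figure D1:**
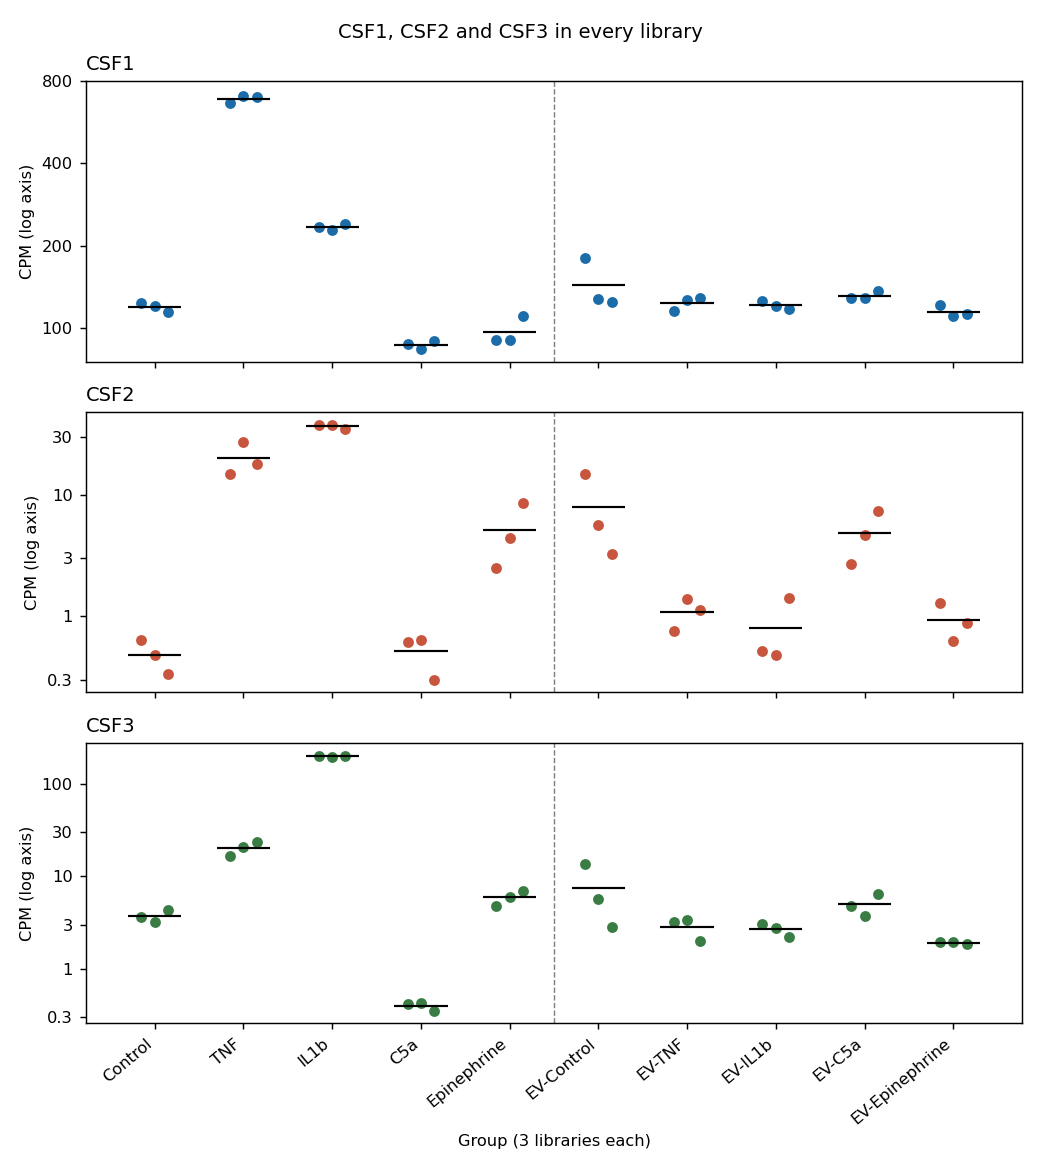
CPM (log axes) of CSF1, CSF2 and CSF3 in each of 3 libraries of the 10 groups; points are libraries in the order of their replicate number, lines are means, and a dashed line parts direct from vesicle groups. CSF1 is highest in TNF (689.6 CPM), CSF2 and CSF3 in IL1b (36.5 and 200.2 CPM), and the EV-Control libraries are spread for all 3 genes.

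TNF was given to ask which transcripts change on direct exposure to this cytokine. It raised all 3 factors, CSF2 most in relative terms and CSF1 most in level. CSF1 went from the Control values above to 664, 708 and 697 CPM, and CSF3 to 16.4, 20.7 and 23.5 CPM. CSF2 reached 14.8, 27.0 and 17.9 CPM, with the second library above the others. None of the TNF libraries overlapped the Control libraries for any of the 3 genes. The share of all genes without such overlap was not counted, here or in the comparisons below. CSF1 rose 5.79-fold (log2 fold change 2.53, SE 0.058), CSF3 5.48-fold (2.46, SE 0.13) and CSF2 40.6-fold (5.34, 95% interval 4.2 to 6.48). The adjusted p-values (edgeR) were 4.06e-28 for CSF1, 3.71e-06 for CSF2 and 2.24e-17 for CSF3. The same test called 52.7% of the 15908 genes tested, so a call by itself says little in this comparison.

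IL1b raised the same 3 genes with another order of sizes. CSF3 rose to 201, 197.0 and 203 CPM, 3 nearly equal values. CSF2 rose to 37.6, 37.5 and 34.4 CPM, and CSF1 to 234.5, 227.5 and 240.2 CPM. Again no IL1b library overlapped a Control library. The change was 74.4-fold for CSF2 (log2 fold change 6.22, SE 0.48), 54.4-fold for CSF3 (5.77, SE 0.11) and 1.98-fold for CSF1 (0.98, SE 0.056). Adjusted p-values were 7.92e-07, 3.82e-29 and 4.38e-16 in that order (edgeR), in a test that called 46.6% of genes.

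Set against each other in a test of their own, the 2 cytokines favoured different factors. CSF3 was 9.92-fold higher in IL1b than in TNF cells (log2 fold change 3.31, SE 0.086, adjusted p 2.54e-25, edgeR). CSF1 was 2.93-fold lower in IL1b cells (-1.55, SE 0.055, adjusted p 4.82e-22, edgeR). For CSF2 the difference was small beside its spread in TNF cells: it was 1.83-fold higher in IL1b cells (0.87, 95% interval 0.26 to 1.49), with an adjusted p of 0.0265, edgeR. The test called 41.4% of all genes here. The CSF2 call was lost without 4 of the 6 libraries, left out in turn, with an adjusted p of 0.0916 without TNF 1, 0.0865 without TNF 3, 0.0694 without IL1b 1 and 0.0693 without IL1b 2, and also without the low-count filter (0.0564), with DESeq2 (0.0828) and in a fit of all 30 libraries (0.0541).

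Per kilobase of exon, the mix of the 3 transcripts differed between the cytokines. In TNF cells the levels were 127 for CSF1, 25.3 for CSF2 and 9.10 for CSF3, so that CSF1 made up 78.7% of the sum. In IL1b cells they were 90.2 for CSF3, 46.4 for CSF2 and 43.2 for CSF1, so that CSF3 made up 50.2%. IL1b was the only one of the 10 groups in which CSF1 did not have the highest level per kilobase, whether length was the union of exons or the longest transcript. The order of CSF2 and CSF1 in IL1b cells turned with the length used (46.4 against 55.6 with the longest transcript).

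**Figure D2:**
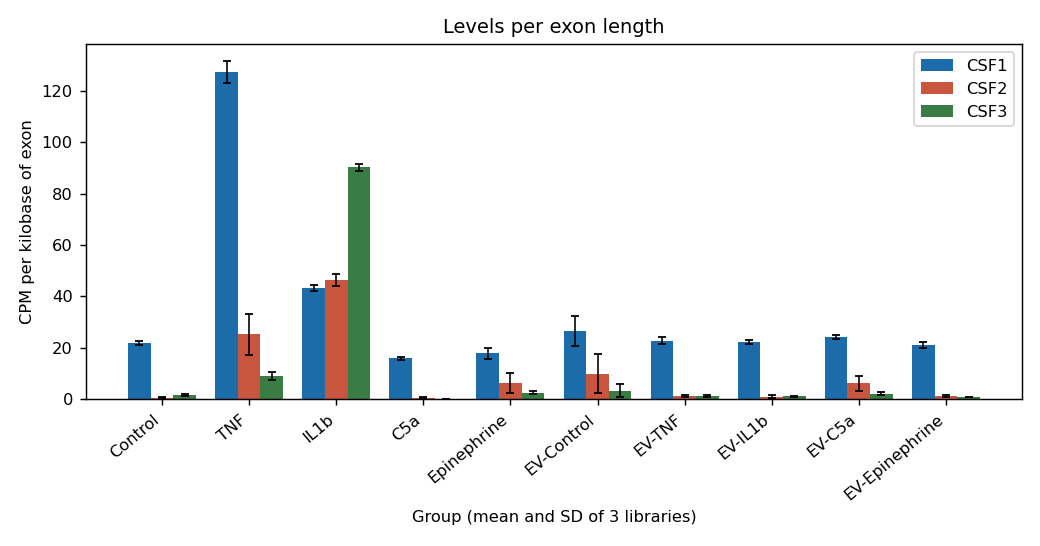
CPM per kilobase of exon for CSF1, CSF2 and CSF3 in the 10 groups; bars are means of 3 libraries from 0 and error bars are SD. CSF1 has the highest bar in 9 groups, from 16.0 in C5a to 127 in TNF, and CSF3 in IL1b (90.2).

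C5a had the opposite direction on the members that it changed. CSF3 fell to 0.414, 0.423 and 0.351 CPM, from 8, 8 and 7 counts, against 3.20 to 4.33 CPM in Control. All 3 C5a libraries lay far below all Control libraries. The fall was 9.16-fold (log2 fold change -3.20, SE 0.28, adjusted p 2.13e-10, edgeR). CSF1 fell 1.36-fold, to 87.0, 83.7 and 89.6 CPM (-0.45, SE 0.058, adjusted p 4.42e-07, edgeR), also without overlap. CSF2 had 12, 12 and 6 counts in C5a cells and 12, 9 and 6 in Control. Its difference was 0.09 on the log2 scale with an interval of -2.17 to 2.36, so a change of several fold in either direction was not detectable at this depth. C5a changed 22.6% of all genes, and 2 of the 3 members, both lower.

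Epinephrine, the adrenergic agonist, split the family. CSF2 rose to 2.52, 4.41 and 8.49 CPM, a wide spread but with the lowest library still above the highest Control library (0.634 CPM). The rise was 10.7-fold (log2 fold change 3.42, 95% interval 2.04 to 4.81, adjusted p 0.00205, edgeR). CSF3 stood at 4.82, 5.93 and 6.97 CPM, 1.62-fold higher than Control (0.69, SE 0.16, adjusted p 0.000956, edgeR). CSF1 stood at 90.0, 90.0 and 110.3 CPM, 1.22-fold lower (-0.29, SE 0.058, adjusted p 0.00027, edgeR). Of all genes 25.2% were called in this comparison. The third Epinephrine library was the highest for each member, and without it CSF2 was 2.82 higher on the log2 scale (adjusted p 0.00028, edgeR). The CSF3 call was lost in the fit of all 30 libraries (0.68, adjusted p 0.21, edgeR).

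Cells given vesicles of unstimulated cells already differed from cells in serum-free medium alone. CSF2 stood at 14.7, 5.62 and 3.23 CPM in the EV-Control libraries, from 245, 102 and 59 counts, all above the Control range of 0.337 to 0.634 CPM. The rise was 15.7-fold (log2 fold change 3.97, 95% interval 2.52 to 5.43, adjusted p 0.000212, edgeR), but a fit of only these 2 groups did not call it (3.98, adjusted p 0.0504, edgeR). CSF3 stood at 13.7, 5.67 and 2.79 CPM and overlapped Control (0.97, adjusted p 0.0676, edgeR). CSF1 stood at 179.6, 128 and 125 CPM and did not overlap Control, but did not pass the test (0.27, adjusted p 0.0532, edgeR). CSF1 did pass without the second or the third EV-Control library, and CSF3 without the third (1.38, adjusted p 0.00177, edgeR). In this comparison 21.9% of the 16691 genes tested were called, and 1 of the 3 members. In the same comparison 9 of 10 endothelial markers were lower.

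The first EV-Control library was the highest of its group for each of the members, and each comparison of a vesicle group with EV-Control rests on these 3 libraries. In the same library CXCL1 stood at 316 CPM against 201 and 138.5 in the others, the decay enzyme ZC3H12A at 192 against 127 and 84.6, and the NF-kappaB subunit REL at 63.7 against 27.1 and 18.6. FOSB (383 against 476 and 773 CPM), ATF3 (550 against 547 and 667 CPM) and PTGS2 (0.779 against 1.76 and 2.19 CPM) were not highest there. The part of this library in the members' results was not tested beyond leaving it out. Without it, CSF2 was still 3.17 above Control on the log2 scale (adjusted p 0.00189, edgeR), CSF3 differed by 0.20 (adjusted p 0.708) and CSF1 by 0.09 (adjusted p 0.354).

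Vesicles of TNF-treated, IL1b-treated and epinephrine-treated cells did not raise any of the 3 factors above EV-Control. These groups differ from EV-Control by the stimulus given to the donor cells, and any difference in the dose of vesicles cannot be told apart from it. These comparisons share the EV-Control libraries, so their values are set side by side and not counted as independent. CSF2 stood at 0.762, 1.38 and 1.14 CPM in EV-TNF, at 0.519, 0.483 and 1.42 CPM in EV-IL1b, and at 1.30, 0.627 and 0.874 CPM in EV-Epinephrine. All 9 libraries lay below the lowest EV-Control library (3.23 CPM). CSF2 was 7.11-fold lower in EV-TNF (log2 fold change -2.83, SE 0.65, adjusted p 0.0162), 9.61-fold lower in EV-IL1b (-3.27, SE 0.70, adjusted p 0.00992) and 8.21-fold lower in EV-Epinephrine (-3.04, SE 0.68, adjusted p 0.00897), all from edgeR. The test called 13.3% of the 15918 genes in EV-TNF, 14.6% in EV-IL1b and 19.7% in EV-Epinephrine. Without the first EV-Control library the 3 differences were -2.01, -2.45 and -2.22, with adjusted p-values of 0.00821, 0.00262 and 0.00323, edgeR. In fits of only the groups compared they did not pass (adjusted p 0.138, 0.126 and 0.094, edgeR), and the EV-TNF call was also lost without EV-TNF 1 or EV-TNF 3.

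CSF3 moved in the same direction with less distance from EV-Control. It stood at 3.20, 3.32 and 1.99 CPM in EV-TNF and at 3.06, 2.74 and 2.22 CPM in EV-IL1b, and in both overlapped the lowest EV-Control library (2.79 CPM). Neither passed the test (-1.36, adjusted p 0.105, and -1.46, adjusted p 0.0859, edgeR), but both did with DESeq2 (adjusted p 0.00435 and 0.00208), in the fit of all 30 libraries (0.0282 and 0.0201) and without the third EV-Control library (0.00097 and 0.000659). Without the first EV-Control library the differences shrank to -0.57 and -0.66 and did not pass (adjusted p 0.174 and 0.0953, edgeR). In EV-Epinephrine CSF3 stood at 1.92, 1.94 and 1.87 CPM, below every EV-Control library. It was 3.83-fold lower (-1.94, SE 0.53, adjusted p 0.0255, edgeR), and without the first EV-Control library the difference was -1.15 (adjusted p 0.00142, edgeR). That call was lost in fits without any one of the 3 EV-Epinephrine libraries and in the fit of only the groups compared (adjusted p 0.179, edgeR).

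CSF1 varied little among the vesicle groups. It lay between 110.2 and 129 CPM in all libraries of EV-TNF, EV-IL1b and EV-Epinephrine. The differences from EV-Control were -0.22, -0.25 and -0.33 on the log2 scale, with adjusted p-values of 0.289, 0.213 and 0.088, edgeR. The EV-Epinephrine difference passed without the first EV-Control library (-0.14, adjusted p 0.039, edgeR), without the third (-0.42, adjusted p 0.0332), with DESeq2 and in the fit of all 30 libraries. Its size therefore rests on the first EV-Control library.

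Vesicles of C5a-treated cells left the members near EV-Control. CSF2 stood at 2.67, 4.64 and 7.27 CPM and CSF3 at 4.81, 3.73 and 6.50 CPM, both within or overlapping the EV-Control range. The differences were -0.68 for CSF2 (95% interval -1.87 to 0.5), -0.55 for CSF3 (-1.57 to 0.47) and -0.13 for CSF1 (-0.4 to 0.13), and turned to 0.13, 0.25 and 0.06 without the first EV-Control library. None of the 3 was called by edgeR or by DESeq2, and 0 of 3 had an unadjusted p under 0.05. Of the 15918 genes 8 (0.0503%) were called in this comparison, a count that rose to 175 without the third EV-Control library, fell to 2 without the second EV-Control or the second EV-C5a library and to 3 without the third EV-C5a library, and was 73 without the low-count filter. EV-IL1b and EV-TNF did not separate for any member either, with differences of -0.03 for CSF1, -0.44 for CSF2 and -0.09 for CSF3, no call by edgeR or DESeq2 and 0 of 3 with an unadjusted p under 0.05. The interval for CSF2 was -2.44 to 1.57, which leaves room for a difference of several fold, and that test called 0.00628% of genes.

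**Figure D3:**
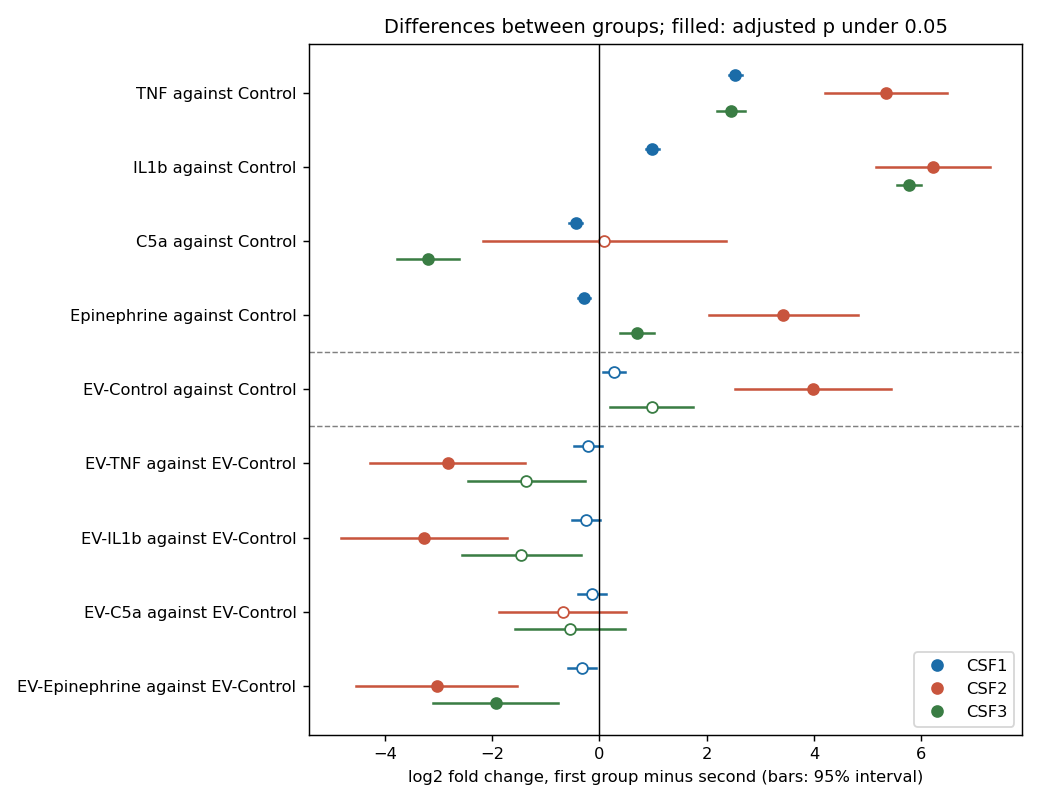
Log2 fold changes of CSF1, CSF2 and CSF3 (first group minus second) with 95% intervals; filled circles had an adjusted p under 0.05 (edgeR), and dashed lines part direct stimuli, EV-Control against Control and vesicle comparisons. The cytokines lie to the right for every member (0.98 to 6.22), and the EV-TNF, EV-IL1b and EV-Epinephrine values lie to the left (-0.22 to -3.27).

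The difference between the vesicle response and the direct response was tested as an interaction in the fit of all 30 libraries. For TNF it was -2.75 for CSF1, -8.16 for CSF2 and -3.80 for CSF3, and for IL1b -1.23, -9.47 and -7.20. All 6 passed, with adjusted p-values from 1.91e-13 to 1.78e-06 (edgeR). For epinephrine CSF2 (-6.44, adjusted p 2.56e-05) and CSF3 (-2.61, adjusted p 0.00169) differed and CSF1 (-0.03, interval -0.32 to 0.26) did not pass (edgeR). For C5a CSF3 differed (2.67, adjusted p 0.0332, edgeR), CSF1 (0.32) and CSF2 (-0.76) did not pass, and the CSF3 call was lost without 7 of the 12 libraries, left out in turn. CSF1 did pass for C5a without the first EV-Control library (0.50, adjusted p 1.57e-05, edgeR). The interaction tests called 44.7% of genes for TNF, 35.2% for IL1b, 11.9% for C5a and 24.2% for epinephrine. The reference of the vesicle response, EV-Control, is the group whose CSF2 level was above Control, and it enters each interaction with a minus sign.

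Over the 10 groups the members spanned different ranges. The highest group mean was 7.95 times the lowest for CSF1 (TNF over C5a), 75.4 times for CSF2 (IL1b over Control) and 506 times for CSF3 (IL1b over C5a). In order of CSF1, TNF (689.6 ± 23.1 CPM, SD, n = 3) and IL1b (234 ± 6.39) were set apart from all others. EV-Control (144 ± 30.9), EV-C5a (131 ± 4.63), EV-TNF (124 ± 7.12), EV-IL1b (121 ± 3.87), Control (119 ± 4.86), EV-Epinephrine (115 ± 5.77) and Epinephrine (96.8 ± 11.7) overlapped from each to the next, and C5a (86.8 ± 2.97) lay below them. For CSF2, IL1b (36.5 ± 1.81) and TNF (19.9 ± 6.34) led. EV-Control (7.85 ± 6.05), Epinephrine (5.14 ± 3.05) and EV-C5a (4.86 ± 2.31) overlapped, and below a gap came EV-TNF (1.09 ± 0.311), EV-Epinephrine (0.933 ± 0.339), EV-IL1b (0.809 ± 0.533), C5a (0.519 ± 0.189) and Control (0.484 ± 0.149), which overlapped from each to the next. For CSF3, IL1b (200.2 ± 2.88) and TNF (20.2 ± 3.56) led, the groups from EV-Control (7.40 ± 5.67) to EV-IL1b (2.67 ± 0.421) overlapped from each to the next, and EV-Epinephrine (1.91 ± 0.0377) and C5a (0.396 ± 0.039) each lay apart at the bottom.

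Over all libraries CSF2 and CSF3 had the highest correlation of the 3 pairs, and within groups the lowest. In the 30 libraries, which share 10 groups and differ in depth, Pearson's correlation of log2 levels was 0.865 for CSF2 with CSF3, 0.702 for CSF1 with CSF2 and 0.643 for CSF1 with CSF3. Deviations of libraries from their group means gave the lowest value for CSF2 with CSF3, 0.542, against 0.687 for CSF1 with CSF2 and 0.685 for CSF1 with CSF3. With the first EV-Control library left out of the correlation but kept in its group mean, these were 0.393, 0.597 and 0.473. The groups departed from a common line in places: C5a had CSF2 at the Control level and CSF3 far below it, while the EV-Epinephrine libraries had CSF2 (0.627 to 1.30 CPM) overlapping the upper end of Control and CSF3 (1.87 to 1.94 CPM) below it.

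**Figure D4:**
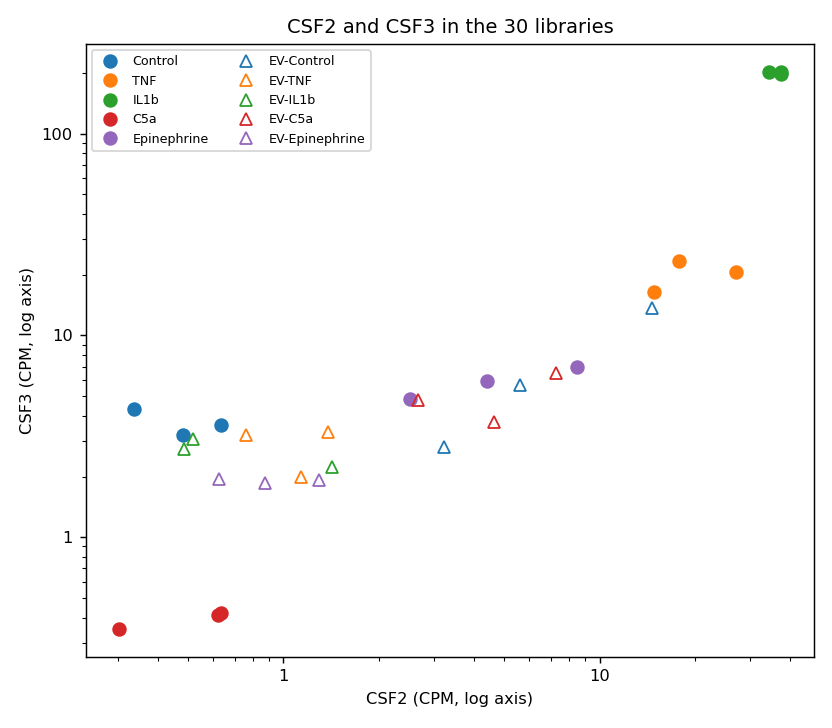
CSF2 against CSF3 in each of the 30 libraries (CPM, log axes); circles are direct groups, triangles vesicle groups, and colours the stimulus. IL1b libraries lie at the top right (34.4 to 37.6 CPM of CSF2), C5a libraries at the bottom left (0.351 to 0.423 CPM of CSF3), and EV-Control libraries spread along the diagonal.

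The genes whose log2 levels were most like each member over the 30 libraries were taken by Pearson's correlation. For CSF1 they were SLC2A6 (0.981), PANX1 (0.981), RELB (0.978), IL6ST (0.976) and GCH1 (0.975). For CSF2 they were HIF1A (0.935), NAMPT (0.931), BCL3 (0.916), IL1R1 (0.912) and SLC19A2 (0.910). For CSF3 they were CXCL1 (0.966), STOM (0.945), PTGS2 (0.921), FBXO32 (0.909) and ACSL4 (0.903). The lists moved with the measure: with Spearman's coefficient 1, 1 and 2 of the 5 genes stayed among the top 5 for CSF1, CSF2 and CSF3, and with 10 group means 2, 1 and 3 did.

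The receptors of these factors were at or near 0 in these cells. CSF1R had group means of 0.144 to 0.55 CPM, CSF2RB of 0.0349 to 0.244 CPM and CSF3R of 0 to 0.15 CPM, with at most 12, 9 and 4 counts in a library. None of the 4 passed the low-count filter among direct libraries, and CSF1R, the only one to pass it among vesicle libraries, was not called in any comparison. CSF2RA is listed at 0, but it lies in the pseudoautosomal region, where 42 of 45 gene IDs were at 0 in every library, so its level is not known from this table.

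Of 11 other ligands and haematopoietic growth factors, 7 could be tested. TNF raised 6 of the 7 (median log2 fold change 1.69, against -0.01 for all genes, of which 52.7% were called): IL34, the second ligand of CSF1R, went from 0.483 to 5.42 CPM (3.46), and IL11 (2.84), TSLP (2.32) and IL15 (1.69) rose as well. IL1b raised 3 of 7, near the 46.6% of all genes that it changed: TSLP (2.03), IL11 (1.93) and the stem cell factor KITLG (0.53). Epinephrine raised IL11 (1.58), TSLP (1.25) and KITLG (0.39) and lowered IL34 (-1.61), which was below 1 CPM in both groups (25.2% of all genes were called). The IL34 call was lost without Control 2, Epinephrine 2 or Epinephrine 3 and without the low-count filter. Under C5a none of the 7 was called by edgeR or DESeq2, and 1 had an unadjusted p under 0.05. IL11, TSLP and KITLG were also higher in EV-Control than in Control (1.69, 0.81 and 0.44, with 21.9% of all genes called), and KITLG was lower than EV-Control in EV-TNF, EV-IL1b and EV-Epinephrine (-0.31, -0.25 and -0.36). IL11 and TSLP were lower than EV-Control in EV-TNF (-0.73 and -0.60), and IL11 in EV-Epinephrine (-0.68), but DESeq2 made none of these 3 calls. They were also lost without the first or the second EV-Control library, and IL11 and TSLP in EV-TNF without 2 of the 3 EV-TNF libraries each, and IL11 in EV-Epinephrine without any one of its 3. KITLG lost its call in EV-IL1b without EV-Control 1 or EV-IL1b 1. Without the first EV-Control library 1, 0 and 1 of the 7 were called in EV-TNF, EV-IL1b and EV-Epinephrine.

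Among 22 transcription factors known to act at these genes, TNF raised 18 and lowered 1 (median log2 fold change 1.04), where 52.7% of all genes were called. The NF-kappaB subunits RELB (2.80) and NFKB2 (2.45) led, with ETS1 (2.18) and the AP-1 member FOSL1 (2.13). IL1b raised 13 and lowered 5 (median 0.39), against 46.6% of all genes called, with JUN (1.12), RELB (1.04) and CEBPB (0.89) up and the stress factor ATF3 down (-2.20). RELB, like CSF1, was thus raised by both and lower in IL1b than in TNF cells (-1.76). C5a lowered 10 and raised 2 (median -0.38), against 22.6% of all genes called, with ATF3 (-2.62), FOSB (-1.84) and JUNB (-1.30) down and JUN up (0.85), which did not pass with only the groups compared. Epinephrine raised 10 and lowered 2, against 25.2% of all genes called, with smaller changes (JUN 0.69, ATF3 0.62). Both of these calls were lost with only the groups compared, without the low-count filter, and without Control 2 or Epinephrine 3, JUN also without Epinephrine 2 and in the fit of all 30 libraries, and ATF3 also without Control 3. EV-Control against Control raised 11 and lowered 1, against 21.9% of all genes called, with FOSB (2.19), ATF3 (1.35) and REL (1.23) in front, of which REL did not pass with only the groups compared. Against EV-Control, 10 were lower and 2 higher in EV-TNF, 9 and 2 in EV-IL1b, and 13 and 1 in EV-Epinephrine, where 13.3%, 14.6% and 19.7% of all genes were called. Without the first EV-Control library these were 8 and 1, 7 and 2, and 11 and 1, and none was called in EV-C5a by edgeR or DESeq2 (2 with an unadjusted p under 0.05). In the main fit the largest called change was a rise of FOS in EV-TNF (2.04) and in EV-IL1b (2.22). In EV-Epinephrine it was a fall of FOSB (-2.5). Single libraries differed widely in FOS, from 44.2 to 957.5 CPM, where group means ran from 167.9 to 785.8 CPM. The lowest library thus lay far below every group mean, which limits how the size of the FOS rises can be read.

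Genes for proteins that shorten or protect AU-rich and stem-loop mRNAs were followed as a list of 12. ZC3H12A, the endonuclease Regnase-1, rose with TNF (1.67), with IL1b (0.85) and in EV-Control (0.99), and fell with C5a (-2.39) and, against EV-Control, in EV-TNF (-1.38), EV-IL1b (-1.43) and EV-Epinephrine (-1.97). With only the groups compared its differences in EV-Control, EV-TNF and EV-IL1b did not pass. ZFP36, or tristetraprolin, which binds AU-rich elements, fell from 150.5 to 53.4 CPM with IL1b (-1.49) and to 40.4 CPM with C5a (-1.89), the groups with the highest and the lowest CSF3. In all, 6 were higher and 0 lower after TNF, near the 52.7% of all genes called there. After IL1b 8 were higher and 2 lower (46.6% of all genes were called), after C5a 4 and 4 (22.6%) and after epinephrine 2 and 3 (25.2%). With total-count scaling the TNF split was 4 higher and 6 lower, and ZC3H12A was higher under both scalings. In EV-Control 4 were higher and 1 lower than in Control (21.9% of all genes were called), and 2 and 0 without the first EV-Control library. Against EV-Control 2 were higher and 1 lower in EV-TNF (13.3% of all genes were called), 2 and 3 in EV-IL1b (14.6%) and 3 and 2 in EV-Epinephrine (19.7%).

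Signal transducers and feedback genes below these receptors, which other cytokine receptors use too, numbered 12. TNF raised 8 and lowered 2, where 52.7% of all genes were called, with SOCS1 (2.34), STAT5A (1.94) and JAK2 (1.89) up and CISH down (-1.83). Levels of CISH and SOCS1 were low, with group means of 0.389 to 1.54 CPM for CISH (4 to 33 counts a library) and 1.08 to 5.88 CPM for SOCS1. IL1b raised 6 and lowered 2, where 46.6% were called, with SOCS3 (1.77) and SOCS1 (1.01) up and the kinase PIM1 down (-0.82). After C5a 1 was higher and 2 were lower (22.6% of all genes were called), and after epinephrine 1 was higher and 1 lower (25.2%), both near or below the share of all genes. EV-Control against Control raised 4 and lowered 1, where 21.9% were called, with SOCS1 (1.64) and SOCS3 (1.12) in front, and 3 and 0 without the first EV-Control library. Against EV-Control, 1 was higher and 4 lower in EV-TNF, 2 and 4 in EV-IL1b, and 0 and 6 in EV-Epinephrine. The shares of all genes called there were 13.3%, 14.6% and 19.7%. Without the first EV-Control library these counts were 0 and 4, 0 and 3, and 0 and 5. Among the lower genes, SOCS1 and PIM1 were called in EV-TNF (-1.58 and -0.56), EV-IL1b (-1.13 and -0.55) and EV-Epinephrine (-1.22 and -1.30). SOCS1 lost its call in EV-IL1b without EV-Control 1, EV-Control 2, EV-IL1b 1 or EV-IL1b 2, and PIM1 lost its call in EV-TNF with only the groups compared, as did SOCS3 in EV-Control.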

How the data were processed

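For the 30 libraries the authors deposited unnormalized counts of reads for each Ensembl gene. Per the labels' protocols, RNA came from QIAshredder and RNeasy columns, and libraries from 1 ng of total RNA with a NEBNext Ultra kit. The submitters' processing notes name hg38, FastQC, STAR, DESeq2 and R 4.4.1, without a role. The counting program, its use of strand and the annotation release are not given in the sources used here. All libraries carry 1 batch number. Rows without a gene ID (4, holding 0.00079% to 0.0016% of a library) and 2 gene IDs without counts were left out, and 3 repeated rows were dropped. No per-sample column was left unused.

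Counts were tested in R 4.3.3 with edgeR 4.0.16 (filterByExpr, trimmed mean of M-values, robust quasi-likelihood test, two-sided, Benjamini-Hochberg over all genes, threshold 0.05). The direct groups (15908 genes), the vesicle groups (15918) and all 30 libraries (16691, for EV-Control against Control and the interactions) had separate fits, with common biological coefficients of variation of 0.0553, 0.05 and 0.0528. SE is the log2 fold change over the root of F, and intervals are 95%. Intervals and the floor of 3 counts cover counting error or library spread only, since no molecular identifiers are described. CPM use factors of the 30-library fit. Lengths, positions and 3′ sites come from GENCODE 29 on GRCh38, and the promoter from RefSeq. On simulated counts for TNF against Control with 15409 genes, 198 of 200 changed genes were found, with 5 false calls. The changed genes were drawn from those with more Control counts than CSF2 had. All genes shared the same spread, and far fewer were changed than were called in the data. The result therefore does not cover a gene like CSF2.

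The members, gene lists and tests were chosen with earlier results of these data known. In each list up to 4 called genes with the largest change were named per comparison. Alternatives were relative log expression factors or total counts, no filter or a mean of at least 50 counts, DESeq2 1.42.0, a replicate block, other library sets, and leaving out each library.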

Additional observations from a re-analysis of the deposited data

Results flagged for a closer look

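The vesicle response and the direct response to a stimulus differed by a test of the interaction for 9 of the 12 pairs of a member and a stimulus. These tests called from 11.9% (C5a) to 44.7% (TNF) of all genes. For TNF the vesicle response minus the direct response was -2.75 on the log2 scale for CSF1 (SE 0.138), -8.16 for CSF2 (SE 0.869) and -3.8 for CSF3 (SE 0.504). For IL1b it was -1.23 for CSF1 (SE 0.138), -9.47 for CSF2 (SE 0.874) and -7.2 for CSF3 (SE 0.49). For epinephrine it was -6.44 for CSF2 (SE 0.958) and -2.61 for CSF3 (SE 0.575). For C5a it was 2.67 for CSF3 (SE 0.802), the one positive value among them and the one whose adjusted p (0.0332, edgeR) was near the threshold. Without the first EV-Control library these values lay between -8.67 (CSF2, IL1b) and 3.43 (CSF3, C5a), and each of the 9 still passed. The C5a value for CSF1, not among the 9, then passed as well (0.50, adjusted p 1.57e-05, edgeR). The C5a value for CSF3 did not pass without 7 of its 12 libraries, each left out in turn, without the low-count filter (adjusted p 0.0708, edgeR) or with only the groups compared (0.126).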

How the results depend on the processing

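Of the 45 member results (3 genes in 15 comparisons), 24 kept direction and side of the threshold under every alternative run, all 6 rises with TNF and IL1b, both falls with C5a and the CSF2 rise and CSF1 fall with epinephrine among them. The other calls changed as follows, in log2 units, and the cause was not tested except where a setting tests fewer samples. CSF1 in EV-Control against Control (0.27) passed with relative log expression factors (0.277), a mean of 50 counts (0.273) and DESeq2 (0.279), and CSF3 with DESeq2 (1.00). With total counts the CSF1 epinephrine interaction turned to 0.007, and levels moved beyond 1 SD to 586.6 CPM for CSF1 in TNF, 90.5 for CSF1 in C5a, 196 for CSF3 in IL1b and 1.97 for CSF3 in EV-Epinephrine. Without the low-count filter CSF2 in IL1b against TNF (0.88), CSF3 in EV-Epinephrine (-1.94) and the CSF3 C5a interaction (2.66) did not pass. DESeq2 did not call CSF2 in IL1b against TNF (0.88) and called CSF3 in EV-TNF (-1.38) and EV-IL1b (-1.47) and CSF1 in EV-Epinephrine (-0.33). In the fit of all 30 libraries CSF3 with epinephrine (0.68) and CSF2 in IL1b against TNF (0.87) did not pass, and CSF3 in EV-TNF (-1.34) and EV-IL1b (-1.44) and CSF1 in EV-Epinephrine (-0.33) did. With only the groups compared, CSF2 in EV-TNF (-2.82), EV-IL1b (-3.26), EV-Epinephrine (-3.04) and EV-Control against Control (3.98), CSF3 in EV-Epinephrine (-1.94) and the CSF3 C5a interaction (2.65) did not pass.

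Leaving out each library gave these ranges where a call or direction changed. CSF1 ran from 0.091 to 0.37 in EV-Control against Control, -0.22 to 0.057 in EV-C5a, -0.42 to -0.14 in EV-Epinephrine, 0.22 to 0.50 in the C5a interaction and -0.13 to 0.15 in the epinephrine interaction. CSF2 ran from -0.10 to 0.37 in C5a against Control, 0.71 to 1.16 in IL1b against TNF, -3.20 to -2.01 in EV-TNF, -1.09 to 0.13 in EV-C5a and -1.18 to 0.031 in the C5a interaction. CSF3 ran from 0.20 to 1.38 in EV-Control against Control, -1.75 to -0.57 in EV-TNF, -1.85 to -0.66 in EV-IL1b, -0.94 to 0.25 in EV-C5a, -2.33 to -1.15 in EV-Epinephrine, -0.29 to 0.03 in EV-IL1b against EV-TNF and 2.26 to 3.43 in the C5a interaction.

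Same-numbered libraries of the groups compared did not deviate together over all genes (correlations of -0.065 to 0.037). This gave no sign of pairing but cannot exclude it, since counting noise in low genes lowers such correlations. Of the vesicle groups only EV-Control was set against its direct group in this check. With the replicate block no member call changed; CSF2 with epinephrine was 3.41 and in EV-TNF -2.78. The 8 genes called in EV-C5a against EV-Control became 5 with total counts, 73 without the filter, 3 with a mean of 50 counts, 2 with DESeq2, 3 in each other library set and 2 to 175 without one library. The 1 gene of EV-IL1b against EV-TNF became 3 with total counts or the block, 23 without the filter, 6 with only these groups, and 0 with DESeq2 or all libraries. With total counts the share of called genes that were higher was 38.7% for IL1b (51.5% in the main scaling), 76.1% for IL1b against TNF (48.1%), 60.2% for EV-Epinephrine (46.4%), 42.6% for EV-Control against Control (55.3%), and 76.7% and 62.3% for the TNF and IL1b interactions (47.7% and 48.1%). Depth limits CSF2 most, at 6 to 12 counts a library in Control and C5a.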
